A study of Mus musculus with 6 samples.

Results

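The TGF-beta pathway genes described here are 4 genes measured in a mouse breast cancer line, D2.OR: the type I receptor gene Tgfbr1, the BMP-family ligand gene Gdf6, the early response gene Klf10 and the ubiquitin ligase gene Wwp1. They were chosen by symbol for their roles in the pathway, with earlier results of these data known, and found through their Ensembl identifiers. The table of 53647 features held a row for each of the 4. RNA was sequenced from 2 groups of 3 libraries. Both groups were puromycin-selected after lentiviral transduction, 1 with a scrambled short hairpin RNA (Scram) and 1 with a hairpin against SLX4IP (shSLX4IP), and both were kept for 7 days in 3D culture on a layer of basement membrane extract (Cultrex), in medium that held 10% serum and 5% of the extract. The labels name a single targeting hairpin and no rescue. They call the replicates biological without saying whether the cultures were separate, so the p-values measure the spread between these libraries, which may be partly technical.

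TGF-beta signals through a pair of serine/threonine kinase receptors. The ligand binds the type II receptor, which activates the type I receptor TGFBR1, and TGFBR1 phosphorylates SMAD proteins that enter the nucleus and change transcription. BMP-family ligands such as GDF6 use related receptors and another set of SMADs. KLF10, a zinc finger factor of the SP1/KLF family first described as TGF-beta-inducible early gene, is among the genes switched on within a short time of TGF-beta addition, and it represses the inhibitory SMAD7 gene. WWP1, a HECT ubiquitin ligase of the NEDD4 type, works with SMAD7 to mark the type I receptor for degradation. In mammary carcinoma cells the pathway is known both for growth arrest and for epithelial-mesenchymal transition.

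Each value is a read count over the size factor of its library, called a normalised count below. Whole reads were recovered from them by taking the smallest value above 0 in a library as 1 read. The recovered reads assigned to features came to 5433573 to 6693111 per library. Read counts and counting errors below rest on this assumption. Many features of this table cannot be tied to the gene under whose identifier they are listed. Reading is therefore limited to 4 chromosome segments where genes with high values lie close together, and to the mitochondrial genes. Inside these segments 40.4% of protein-coding genes had a mean of at least 1000, against 3.50% outside. The segments were chosen by this same cutoff, so the contrast follows from the choice. It does not test whether reads and gene models agree inside them. All 4 members lie inside. Tgfbr1, Gdf6 and Wwp1 are in the segment at the start of chromosome 4, and Klf10 is the protein-coding gene at place 92 of 94 in that of chromosome 15, near its end. The targeted gene, Slx4ip, lies outside and was listed at 0 in 6 of 6 libraries, so it gave no check of the labels. Scram A stood apart from Scram B and C: its size factor gave each read a value of 1.46, against 0.796 to 0.976 in the other 5 libraries, and it had 8464 features above 0, against 10548 to 11611. Its log2 values, each relative to the mean of the gene over the 6 libraries, fell by 0.39 per doubling of exonic length. This slope, over 353 readable genes, was 0.05 in Scram B and -0.09 in Scram C. It was 0.18, 0.11 and 0.15 in shSLX4IP A to C, above every Scram slope, so the length trend differed between the groups too. Being relative, the slopes do not give the trend of a library by itself.

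Of the 4 members, Klf10 rose about 2-fold in shSLX4IP, Tgfbr1 and Wwp1 did not pass the test, and Gdf6 was listed at 0 throughout. The test was limma on log2(normalised count + 1), 2-sided, with Benjamini-Hochberg adjustment over the 8127 features with a mean of at least 10. Among all 8127, 11.7% were called higher and 11.3% lower at an adjusted p under 0.05, 23% in all, and among the 462 readable ones 17.3% and 22.9%, 40.3% in all. One call among 3 tested members is therefore close to what the table gives in general. A fold change sets shSLX4IP over Scram, and SE is the standard error of the limma fit. As a whole, features tested had a median log2 fold change of 0.25, and the readable ones of -0.23.

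**Figure D1:**
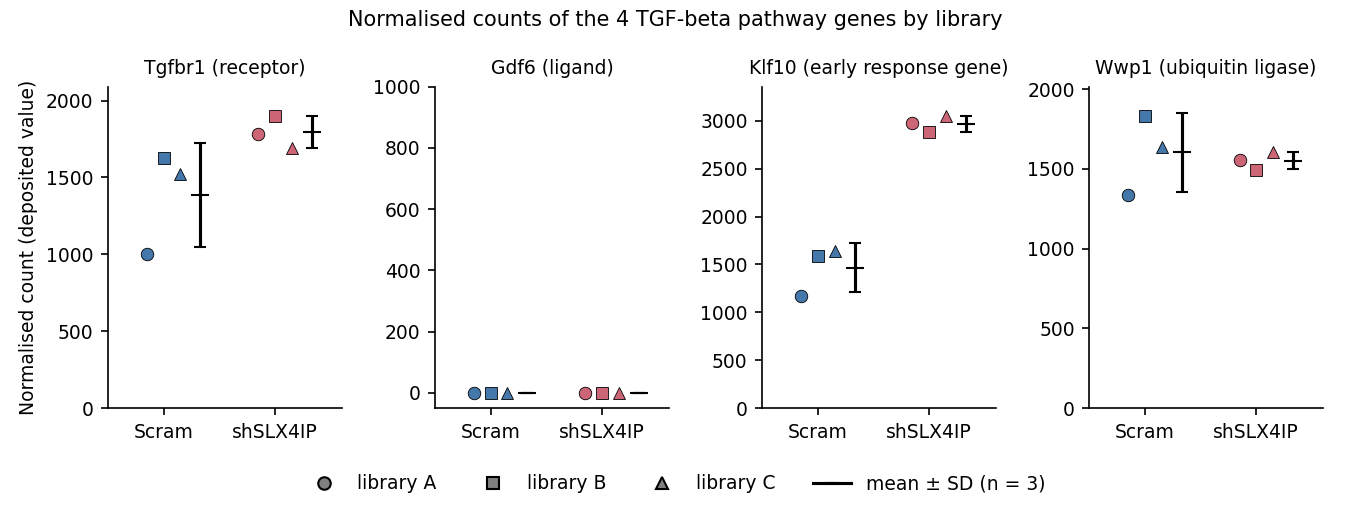
Normalised counts of Tgfbr1, Gdf6, Klf10 and Wwp1 (vertical axes, each panel on its own scale) in the 3 Scram and 3 shSLX4IP libraries, with the mean ± SD beside each group. Klf10 sits between 2888 and 3052 in shSLX4IP, above all Scram libraries, while Wwp1 overlaps and Gdf6 stays at 0.

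The receptor was described first. Tgfbr1 (ENSMUSG00000007613.16) spans 47353222 to 47414931 on the plus strand of chromosome 4 (GRCm38), and no exon of another annotated gene overlaps its exons. The 250 bases before its annotated start, chr4:47352972-47353221, are shown because this is the 1 member whose promoter was found in the RefSeq table (GRCm38.p6), and because GC-rich boxes are the kind of sequence that SP1/KLF factors such as KLF10 are known to bind. Capitals mark the GC box GGGCGG and the CCAAT box, each searched on both strands, with no overlap between the matches.
Tgfbr1: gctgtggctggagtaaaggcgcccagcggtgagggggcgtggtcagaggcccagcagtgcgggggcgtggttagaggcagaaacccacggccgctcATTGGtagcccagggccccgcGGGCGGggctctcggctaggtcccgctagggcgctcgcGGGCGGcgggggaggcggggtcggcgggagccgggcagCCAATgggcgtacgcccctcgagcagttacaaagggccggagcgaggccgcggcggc
The stretch holds 2 exact matches of the GC box, both forward, starting 133 and 95 bases before the start. Only exact matches of the named motifs were searched, so other GC-rich stretches in it, such as ggggcgtgg, are neither marked nor counted. It also holds 2 CCAAT boxes, 1 reverse at 154 and 1 forward at 57 bases before it. Of 32851 promoter windows of the same length, 32.7% hold a GC box and 33.8% a CCAAT box. The stretch has no TATAAA, found in 12.4% of windows, no CAGAC, the core of the SMAD-binding box, found in 42.2%, and no CACCC, found in 52.0%. Its GC content is 74.8%, against a median of 52.4%. A match describes letters and not a bound site.

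Tgfbr1 was at 1002 in Scram A, 1630 in Scram B and 1524 in Scram C, and at 1786, 1901 and 1693 in shSLX4IP A to C. Each shSLX4IP library was above each Scram library, with Scram A far below the other 5. The groups did not overlap either in 53.5% of all features tested and in 67.1% of the readable ones. The means were 1385 ± 336 in Scram and 1793 ± 104 in shSLX4IP (SD, n = 3 each). The log2 fold change was 0.40 (SE 0.22, 95% interval -0.15 to 0.95), and it did not pass the test (limma adjusted p = 0.228). The interval leaves room for a rise of close to 2-fold as well as for none. Without Scram A the log2 fold change was 0.18 (SE 0.08, limma adjusted p = 0.126). With the trend of each library with exonic length removed it was 0.19 (limma adjusted p = 0.255, over 431 readable nuclear features only).

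These values rested on 684 reads in Scram A and on 1672 to 2127 in the other libraries. Counting error alone would give a coefficient of variation of 3.82% at 684 reads. The observed one was 24.3% in Scram and 5.80% in shSLX4IP. The wide Scram spread follows Scram A, which was at 0.635 times the mean of Scram B and C.

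The protein-coding neighbours of Tgfbr1 had fold changes of opposite sign, and neither passed the test. Col15a1, a collagen gene that ends 40055 bases before Tgfbr1, was low in every library, at 0, 12.1 and 2.73 in Scram A to C and at 28.1, 37.1 and 66.9 in shSLX4IP, and it did not pass (log2 fold change 3.53, limma adjusted p = 0.0587). Alg2, a mannosyltransferase gene of N-glycan synthesis on the other side, was at 2761 ± 345 and 1934 ± 93.3 (SD, n = 3 each; log2 fold change -0.51, limma adjusted p = 0.0581). The readable genes most like Tgfbr1 were sought by the root mean square difference of their log2 values over the 6 libraries, each centred on its own mean, among 339 genes whose mean was 100 or more. The nearest was Fancg of the Fanconi anaemia core complex (0.085), then Mib1, a ubiquitin ligase of Notch ligands (0.0998), and Ptbp3, an RNA-binding protein gene (0.104), where the median of all 339 was 0.606. They were picked for this likeness, so that Scram A was the lowest library in each follows from the choice.

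The ligand gene gave no signal. Gdf6 (ENSMUSG00000051279.3; chromosome 4, 9844372 to 9862345, plus strand) encodes a growth and differentiation factor known for joint and skeletal patterning. It was listed at 0 in each of the 6 libraries. A count of 0 allows up to 3 reads in a library, worth normalised counts of 2.39 (shSLX4IP C) to 4.39 (Scram A), and this limit covers counting error only. Its expression was therefore not detectable at this depth in either group, and no fold change or test was possible. Asph, an aspartyl hydroxylase gene that is its nearest readable protein-coding neighbour on one side, was at 4563 ± 698 in Scram and 4782 ± 164 in shSLX4IP, and 2610301B20Rik on the other side at 964 ± 155 and 1329 ± 96.3 (SD, n = 3 each). Reads were thus found on both sides of Gdf6 in each library, but 175028 (Asph) and 1012153 bases (2610301B20Rik) away. At these distances they do not test whether reads and gene model agree at Gdf6 itself.

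The early response gene was the member that moved. Klf10 (ENSMUSG00000037465.11) spans 38291463 to 38300706 on the minus strand of chromosome 15, with no exon of another annotated gene over its own. It was at 1173, 1588 and 1636 in Scram A to C and at 2974, 2888 and 3052 in shSLX4IP A to C. The lowest shSLX4IP library was well above the highest Scram library. The mean rose from 1466 ± 255 to 2971 ± 82.3 (SD, n = 3 each), a ratio of 2.03. The log2 fold change was 1.03 (SE 0.17, 95% interval 0.61 to 1.46, limma adjusted p = 0.0112).

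Klf10 kept its call without any 1 of the Scram libraries, and without Scram A its log2 fold change was 0.88 (SE 0.06, limma adjusted p = 0.000722). Without any 1 of the shSLX4IP libraries the call was lost, at adjusted p = 0.0534 to 0.0575, while the log2 fold change stayed between 1.01 and 1.05. With the length trend removed the log2 fold change was 1.01 (limma adjusted p = 0.00131), in a fit over 431 readable nuclear features, which is smaller than the main one. The main fit adjusted over readable features only gave a limma adjusted p of 0.00494. Count tests on the recovered reads gave 1.02 with edgeR (adjusted p = 0.0236) and 1.01 with DESeq2 (adjusted p = 9.15e-09).

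In reads, Klf10 had 801 in Scram A, 1700 and 1795 in Scram B and C, and 2958 to 3834 in shSLX4IP. As a share of the library total it was at 131, 278 and 274 CPM in Scram A to C and at 564, 544 and 573 in shSLX4IP A to C. Scram A was thus lowest both in normalised counts and in CPM. The coefficient of variation was 17.4% in Scram, where counting error alone gives 3.53% at the 801 reads of Scram A. It was 2.77% in shSLX4IP, whose libraries had more Klf10 reads and so a smaller counting error than Scram A. The change was moderate for the readable part of the table: of the 80 readable features called higher, 61 had a larger log2 fold change than Klf10.

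Of the genes beside Klf10, only Azin1 could be tested, and it went the other way. Odf1, a sperm tail gene, was listed at 0 in each library and gave no fold change. Azin1, which encodes an inhibitor of antizyme and so acts in polyamine control, fell from 7527 ± 348 to 1740 ± 160 (SD, n = 3 each), with a log2 fold change of -2.12 (SE 0.13, limma adjusted p = 0.000506). The genes most like Klf10 over the 6 libraries were Fbxo10, an F-box gene (root mean square difference 0.069), Wasl, the N-WASP gene of actin nucleation (0.073), and Zfp189, a zinc finger gene (0.092), with a median of 0.777 over 339 genes. Fbxo10 went from 637, 916 and 865 in Scram A to C to 1691, 1711 and 1582 in shSLX4IP. The 3 were picked for this likeness, so their direction is set by the choice and is no separate result. Tgfbr1 came at place 43 of the 339 by likeness to Klf10 (0.333) and Wwp1 at place 98 (0.539).

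**Figure D2:**
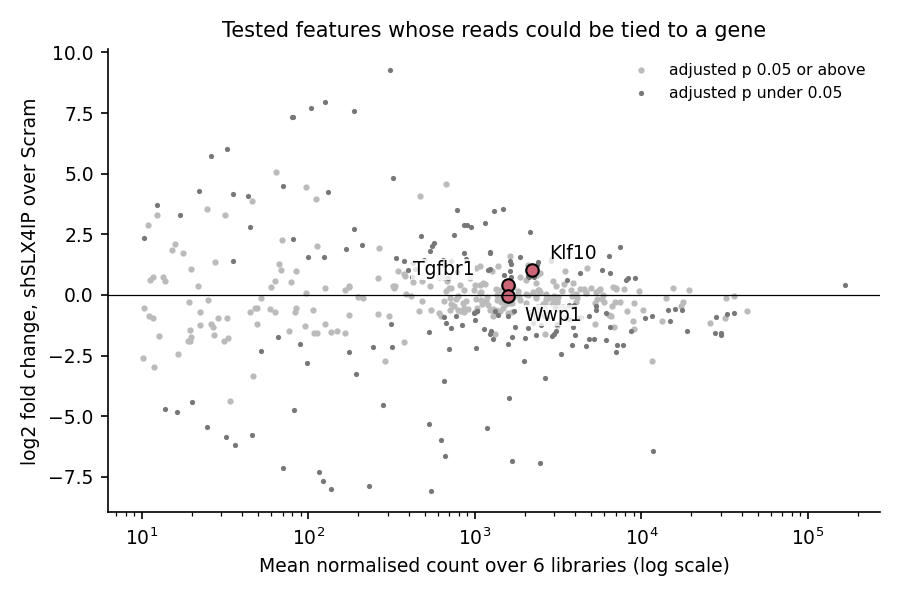
Log2 fold change (vertical axis) against the mean normalised count over the 6 libraries (horizontal axis, log scale) for the 462 readable features tested, dark where the adjusted p was under 0.05. Klf10, at 1.03, lies inside the cloud of called features, and Tgfbr1 and Wwp1, at 0.40 and -0.04, were not called.

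The ubiquitin ligase gene did not pass the test. Wwp1 (ENSMUSG00000041058.16) spans 19608303 to 19708993 on the minus strand of chromosome 4. It was at 1337, 1832 and 1640 in Scram A to C and at 1554, 1495 and 1604 in shSLX4IP A to C. The shSLX4IP libraries all lay between Scram A and Scram C, so the groups overlapped. The means were 1603 ± 250 and 1551 ± 54.8 (SD, n = 3 each). The log2 fold change was -0.04 (SE 0.16, 95% interval -0.44 to 0.37, limma adjusted p = 0.882).

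The direction of Wwp1 depended on the scaling and on Scram B, which had the highest Scram value. After quantile normalization the log2 fold change was 0.28 (adjusted p = 0.407) and without Scram B 0.066 (adjusted p = 0.755). Without Scram A it was -0.16 (adjusted p = 0.166). With the length trend removed it was -0.24 and passed (adjusted p = 0.0387), in a fit over 431 readable nuclear features, which is smaller than the main one. Exons of Gm12353 overlap those of Wwp1 on the other strand. Gm12353 itself was at 0 in 4 libraries, at 1.82 in Scram C and at 0.906 in shSLX4IP A. The genes most like Wwp1 were Tmem64, a membrane protein gene (0.055), Asph (0.071) and Rbm12b2, an RNA-binding protein gene (0.081), picked in the same way.

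Levels were compared between members per kilobase of exonic length. In Scram, Klf10 was at 351 ± 60.9 normalised counts per kilobase, Wwp1 at 248 ± 38.7 and Tgfbr1 at 212 ± 51.5 (SD, n = 3). In shSLX4IP the order of the last pair was the other way round, with Klf10 at 711 ± 19.7, Tgfbr1 at 274 ± 15.9 and Wwp1 at 240 ± 8.50. Within each library, Wwp1 was above Tgfbr1 in all 3 Scram libraries and below it in all 3 shSLX4IP libraries. Klf10 was at percentile 68.9 of 431 readable nuclear genes tested by mean level per kilobase, Wwp1 at 47.8 and Tgfbr1 at 47.6. Wwp1 and Tgfbr1 thus lay near the middle of the readable genes and Klf10 above it.

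Ratios between members within a library do not depend on its size factor, and they were formed after the values had been seen. The Klf10 to Wwp1 ratio of normalised counts was 0.877, 0.867 and 0.998 in Scram A to C and 1.91, 1.93 and 1.90 in shSLX4IP A to C. It was the steadiest of the 3 ratios within shSLX4IP, at 1.92 ± 0.015 (SD, n = 3). The Klf10 to Tgfbr1 ratio was 1.17, 0.974 and 1.07 in Scram and 1.67, 1.52 and 1.80 in shSLX4IP. The Wwp1 to Tgfbr1 ratio went the other way, from 1.33, 1.12 and 1.08 in Scram to 0.870, 0.786 and 0.947 in shSLX4IP. The exonic lengths of Wwp1 and Tgfbr1 are 6453 and 6534 bases, while Klf10 is shorter, at 4179 bases. The length trend differed between the groups, and its part in the 2 Klf10 ratios was not tested.

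All 3 ratios had groups that did not overlap, with or without Scram A. For single features this held for 53.5% of all tested and 67.1% of the readable ones. No such share was computed for ratios of other gene pairs. The log2 differences between the groups were 1.07 for Klf10 to Wwp1, 0.63 for Klf10 to Tgfbr1 and -0.44 for Wwp1 to Tgfbr1, and 1.04, 0.70 and -0.35 without Scram A. A 2-sided exact permutation test gave p = 0.1 for each (adjusted p = 0.1 over the 3), the smallest that 3 libraries against 3 allow, so none could pass 0.05. The ratios share genes and are not independent of each other.

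**Figure D3:**
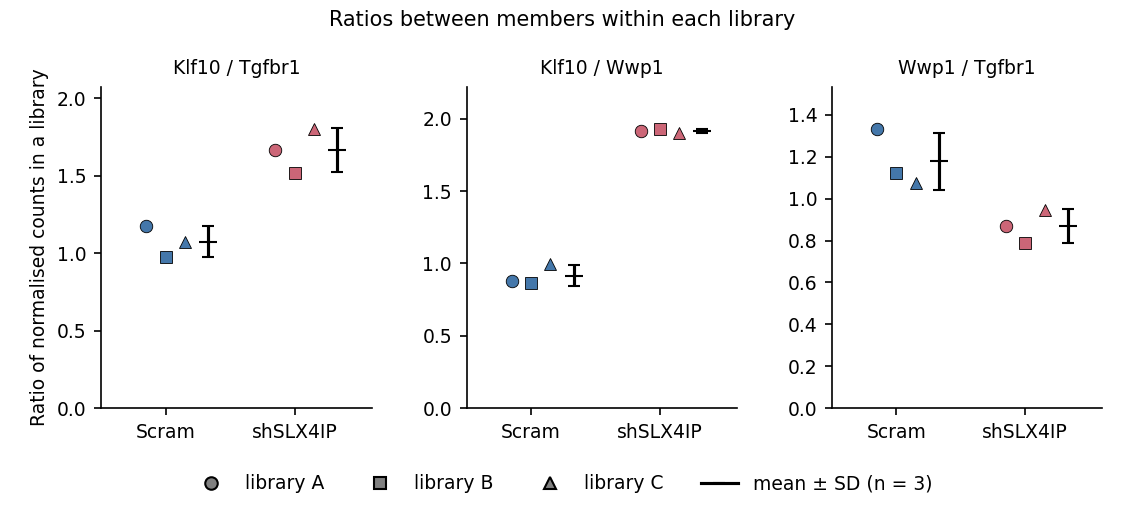
Ratios of normalised counts within each library for Klf10 to Tgfbr1, Klf10 to Wwp1 and Wwp1 to Tgfbr1 (vertical axes start at 0), with the mean ± SD of each group. The 2 Klf10 ratios are higher and the Wwp1 to Tgfbr1 ratio is lower in each shSLX4IP library than in any Scram library.

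Little of the wider pathway could be read. Of 113 genes in 10 lists of ligands, receptors, SMADs, antagonists, NEDD4-type ligases, response genes, Kruppel-like factors and receptor traffic genes, each had a row, 11 were in the readable segments and 9 were tested. Of these 9, 2 were higher (Klf10 and Dlx5) and 3 lower (Col1a2, Klf4 and Cav1), with a median log2 fold change of -0.0027. Over the readable features tested, 17.3% were called higher and 22.9% lower, 40.3% in all, and over all features tested 23%. No TGF-beta or activin ligand (0 of 8), no SMAD (0 of 8) and no antagonist (0 of 11) was in a readable segment, so the level of SMAD signalling itself could not be read. The lists of receptors (1 of 16 readable), of BMP and GDF ligands (1 of 15) and of NEDD4-type ligases (1 of 9) held only the members above. A list with so few readable genes has no direction of its own.

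The response genes differed among themselves. Besides Klf10, 2 of the 17 TGF-beta response genes were readable. Col1a2, a type I collagen chain gene induced by TGF-beta through SMAD3 and SP1 in fibroblasts, was at 20226, 24482 and 25022 in Scram and at 273, 302 and 239 in shSLX4IP (log2 fold change -6.42, SE 0.16, limma adjusted p = 7.64e-05). Zeb1, which TGF-beta can induce and which represses epithelial genes, was at 349, 961 and 760 in Scram A to C and at 1442, 1484 and 1423 in shSLX4IP. Its groups did not overlap, and it did not pass with all 6 libraries (log2 fold change 1.19, SE 0.39, limma adjusted p = 0.0798), while without Scram A it did (0.76, adjusted p = 0.00714). It was called in 6 of 18 other settings, which also include leaving out Scram B (adjusted p = 0.0487), quantile normalization (0.0403), DESeq2 (0.0154), adjustment over readable features only (0.0482) and removal of the length trend (0.0249). The last was a fit over 431 readable nuclear features. The 1 readable gene of the fibroblast markers (1 of 8) was Col1a2, and that of the epithelial markers (1 of 9) was Grhl2, which was low in both groups, at 48.9 ± 28.1 and 13.3 ± 9.26 (SD, n = 3 each; limma adjusted p = 0.177). A change in cell make-up and a change per cell cannot be told apart in these bulk libraries, and the part of either in the Klf10 difference was not tested.

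Dlx5, a homeobox gene induced by BMP signals in bone-forming cells, was the readable BMP response gene (1 of 9). All Scram libraries had it listed at 0, and the values were 141, 184 and 155 in shSLX4IP A to C (limma adjusted p = 0.000424). Against 3 reads per Scram library it was at least 48.3-fold higher. Only Gdf6, at 0, was readable among the 15 BMP and GDF ligand genes of the list, and a link between Dlx5 and any ligand was not tested.

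Among Kruppel-like factors, 2 of 17 were readable and they changed in opposite directions. Klf4, an epithelial and pluripotency factor, fell from 2905, 3157 and 3051 in Scram to 175, 147 and 158 in shSLX4IP (log2 fold change -4.24, SE 0.15, limma adjusted p = 0.000203), where Klf10 rose. The receptor traffic list had 3 of 8 readable. Cav1, whose caveolae take up TGF-beta receptors for degradation, fell from 21100 ± 195 to 13833 ± 365 (SD, n = 3 each), a log2 fold change of -0.61 (limma adjusted p = 0.00847). That call was lost in 7 of 18 other settings, and after quantile normalization the log2 fold change was -0.02. Its partner Cav2 had means of 5914 ± 696 in Scram and 5878 ± 248 in shSLX4IP, with adjusted p = 0.990. Sdc2, a heparan sulfate proteoglycan gene, was at 0, 3.74 and 6.38 in Scram A to C and listed at 0 in shSLX4IP, below the level tested.

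**Figure D4:**
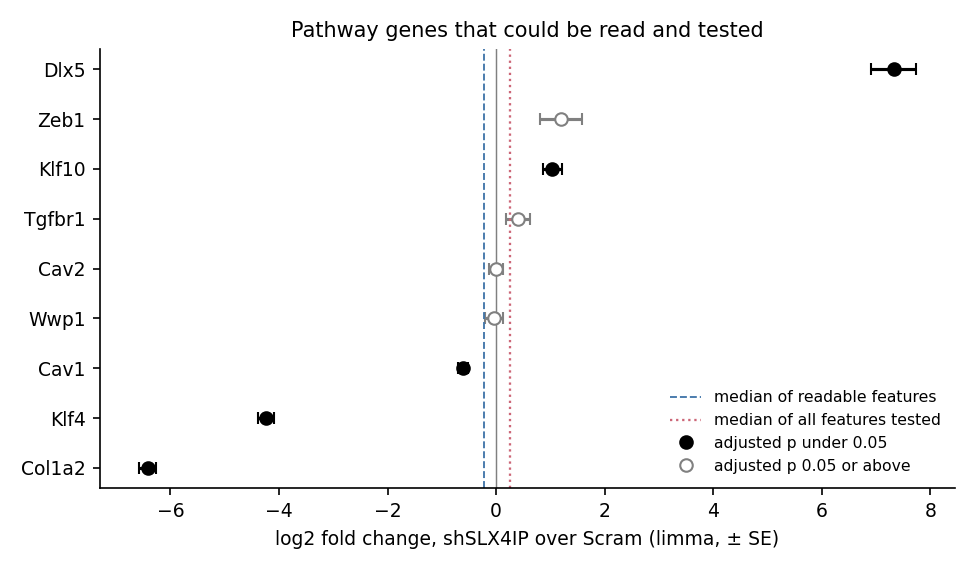
Log2 fold change of shSLX4IP over Scram with its SE (horizontal axis) for the 9 readable and tested pathway genes, filled where the adjusted p was under 0.05. Col1a2 and Klf4 lie far to the left and Dlx5, whose Scram values are all 0, far to the right. Wwp1 and Cav2 lie close to 0, and Tgfbr1 is at 0.40 (SE 0.22).

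The 3 tested members were followed through 18 other settings. Klf10 was called in 15 of them with log2 fold changes from 0.88 to 1.44, and Tgfbr1 in none of 18, with 0.18 to 0.75. Wwp1 was called in 1 and changed sign in 3. Quantile normalization moved the median of all features from 0.25 to -0.0028, and CPM, the recovered reads scaled by the library total, moved it to 0.58. Relative to that median, the log2 fold change of Klf10 was 0.78 as reported, 1.44 after quantile normalization and 0.80 in CPM. The CPM setting was chosen after the values were seen. That of Tgfbr1 was 0.15, 0.72 and 0.16, and that of Wwp1 -0.29, 0.29 and -0.27. Klf10 was thus above the median of the table under each of these scalings, and so was Tgfbr1, by a smaller amount. Against the median of the 462 readable features, -0.23 as reported, the values were 1.26 for Klf10, 0.63 for Tgfbr1 and 0.19 for Wwp1. The side on which Wwp1 lay therefore also depended on the median used.

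**Figure D5:**
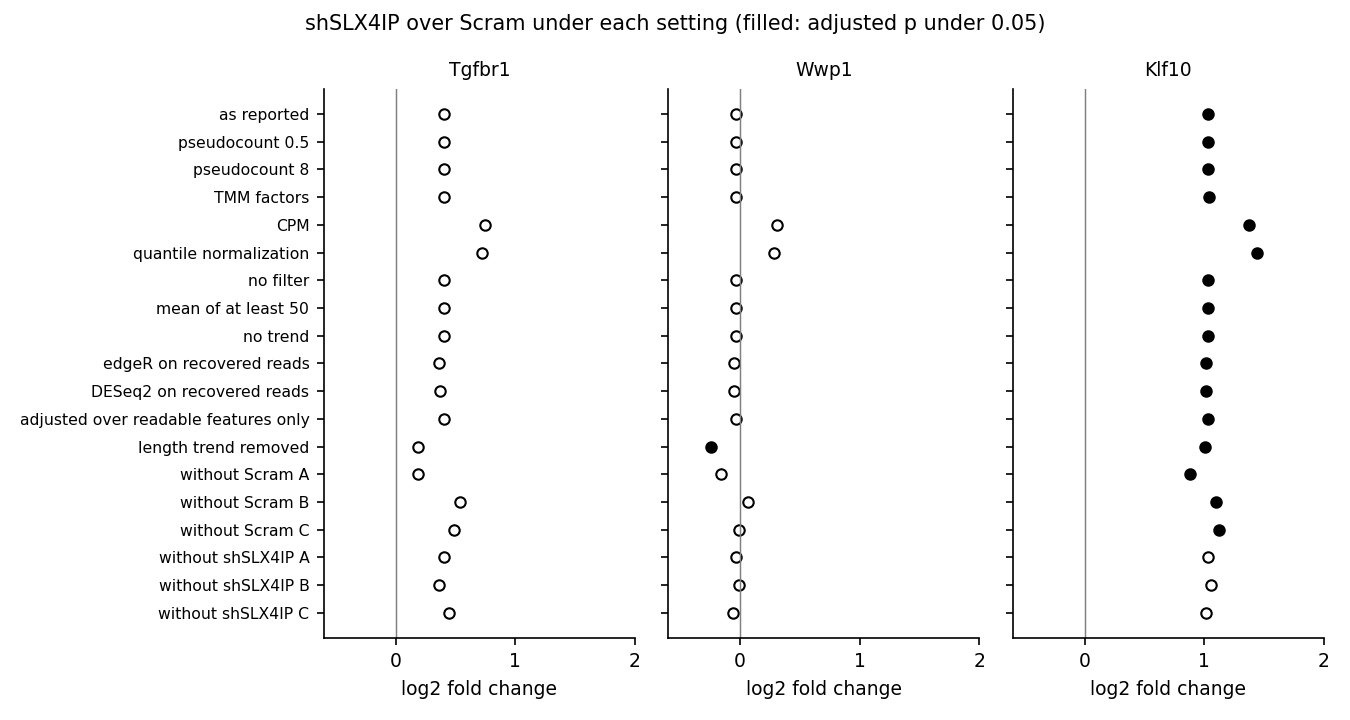
Log2 fold change of Tgfbr1, Wwp1 and Klf10 (horizontal axes) under the reported fit and 18 other settings (vertical axis), filled where the adjusted p was under 0.05. Klf10 lies between 0.88 and 1.44 and loses its call without any 1 shSLX4IP library, while Wwp1 lies on both sides of 0.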

How the data were processed

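Each library took 1 µg of total RNA into a stranded poly(A) kit, per the labels' protocols. STAR 2.7.7, StringTie 2.1.7, fastp 0.19.5 and DESeq2 1.22.1 stand without roles in the submitters' processing notes, with the build GRCm38 (mm10). The annotation release, filters and strand setting: not given in the sources used here. What the authors deposited is a signal per gene, in which read counts were divided by a size factor for each library, as the file header and the values show. Divided by the smallest value above 0, from 99.98% of values above 0 in Scram A up to 100% elsewhere lay within 0.1 of a whole number, and these reads served the count tests, in which edgeR called 1566 features and DESeq2 3226. Columns carry letters that the labels do not, so a letter names a library of its group only.

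Of the 53647 features, 52093 matched GENCODE M21 (GRCm38) by identifier without version, and 36965 were at 0 in every library. Protein-coding genes in chromosome order scored 3 at a mean of at least 1000 and -1 otherwise. Maximal segments scoring at least 30 were kept. There were 4, scoring 41 to 191, and the next scored 18. This rule, the members and the gene lists were chosen with earlier results of these data known.

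The test was limma 3.58.1 in R 4.3.3 with an intensity trend. The pseudocount was 1, so fold changes of low genes are understated. edgeR 4.0.16 and DESeq2 1.42.0 were alternatives, with other pseudocounts, scalings, filters, a length correction and leaving out each library. The named genes are the members, their neighbours, the 3 readable genes most like each member (none with a Gm or Rik name), and the readable genes of the lists. The code was tested on simulated data.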

Additional observations from a re-analysis of the deposited data

How the results depend on the processing

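The counts of features called higher (952) and lower (920) stayed within 1.5 times under both other pseudocounts, TMM factors, CPM, quantile normalization, both other filters, limma without the trend and edgeR. DESeq2 called 1602 higher and 1624 lower, and the cause was not tested. Leaving out 1 library at a time gave 433 to 1895 higher and 410 to 1573 lower, with the highest counts without Scram A and the lowest without a shSLX4IP library. Over the same 6 fits the log2 fold change of Klf10 was 0.88 to 1.12, that of Tgfbr1 0.18 to 0.54 and that of Wwp1 -0.16 to 0.07. Wwp1 changed sign in CPM (0.31), after quantile normalization (0.28) and without Scram B (0.066), and passed with the length trend removed (-0.24). The cause was not tested. Gdf6, at 0 in every library, gave no value under any setting. At this depth Gdf6 could not be told from 0 below the limit of 3 reads a library. No paired analysis was possible because the columns carry letters and not the replicate numbers of the labels.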
